A study of Mus musculus with 4 samples.

Results

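Metabotropic glutamate receptors are G protein-coupled receptors for glutamate, and 6 genes of the family were followed here among the 31053 mouse genes counted: Grm5, Grm2, Grm3, Grm4, Grm7 and Grm8. They were taken by name from the count tables, and each was described across cell types of the ventromedial prefrontal cortex (vmPFC). The family is divided into groups by sequence and coupling. Group I receptors, here Grm5, couple to Gq and phospholipase C and sit mainly on the postsynaptic side, where Homer and Shank proteins anchor them. Group II receptors, Grm2 and Grm3, and group III receptors, Grm4, Grm7 and Grm8, couple to Gi/o, lower cyclic AMP and are best known as brakes on transmitter release from nerve terminals.

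The mice were male C57BL/6 animals, 8 weeks old at injection and killed 6 weeks later. Every animal had received 5 retrograde rAAV2-retro viruses, each expressing EGFP with its own barcode from the CAG promoter, in 5 projection targets (AI, the agranular insula; LH, the lateral hypothalamus; BLA, the basolateral amygdala; DMS, the dorsomedial striatum; MD, the mediodorsal thalamus), so there was no uninjected control. The prelimbic and infralimbic areas were dissociated after slices had been held in blockers of AMPA and NMDA receptors, and 10x Genomics 3′ libraries were made. The 3 unsorted libraries each held the cells of 1 mouse, and 1 sorted library held EGFP-positive cells pooled from 3 mice. The replicate is the library, and cells of 1 library share a mouse.

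The unsorted libraries held 7243 to 8040 cell barcodes and 83039497 to 87809114 unique molecular identifiers (UMIs, 1 per captured RNA molecule), and the sorted library 2075 barcodes and 54728191 UMIs. The authors' table assigned 2463 to 2816 neurons per unsorted library and 1603 in the sorted library to 7 excitatory subtypes named by layer and gene, with a median of 21343.5 to 23213 UMIs per unsorted neuron and 31669 per sorted neuron. Between 5 and 30 cell barcodes recurred in each pair of libraries, 0 to 4 of them among those neurons. Inhibitory cells were the cells outside that table with at least 4 UMIs of Gad1 and Gad2 together and at most 3 of Slc17a7, which gave 407 to 482 cells per unsorted library and only 6 in the sorted one. The 5 excitatory markers summed to 1775 to 1802 CPM (counts of a gene per 1000000 UMIs of the same cells) in the excitatory class and to 18.9 to 23.3 CPM in the inhibitory class, and the 6 inhibitory markers to 7.38 to 9.28 and 3736 to 4003 CPM, where Slc17a7, Gad1 and Gad2 had themselves been used in the selection.

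Each receptor had its own order of levels over the 7 excitatory subtypes. Of the 21 pairs of subtypes, the ranges of the 3 unsorted libraries did not overlap in 19 pairs for Grm5, Grm2 and Grm3, in 17 for Grm4 and Grm7 and in 16 for Grm8; over all genes with at least 5 CPM in a subtype the share was 57% of pairs. The subtypes had been drawn by the authors from the expression of these same cells, so these levels are a description and no test was made of 1 subtype against the rest. Levels are compared within a gene only, because a 3′ count depends on how well each transcript's end is captured.

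**Figure D1:**
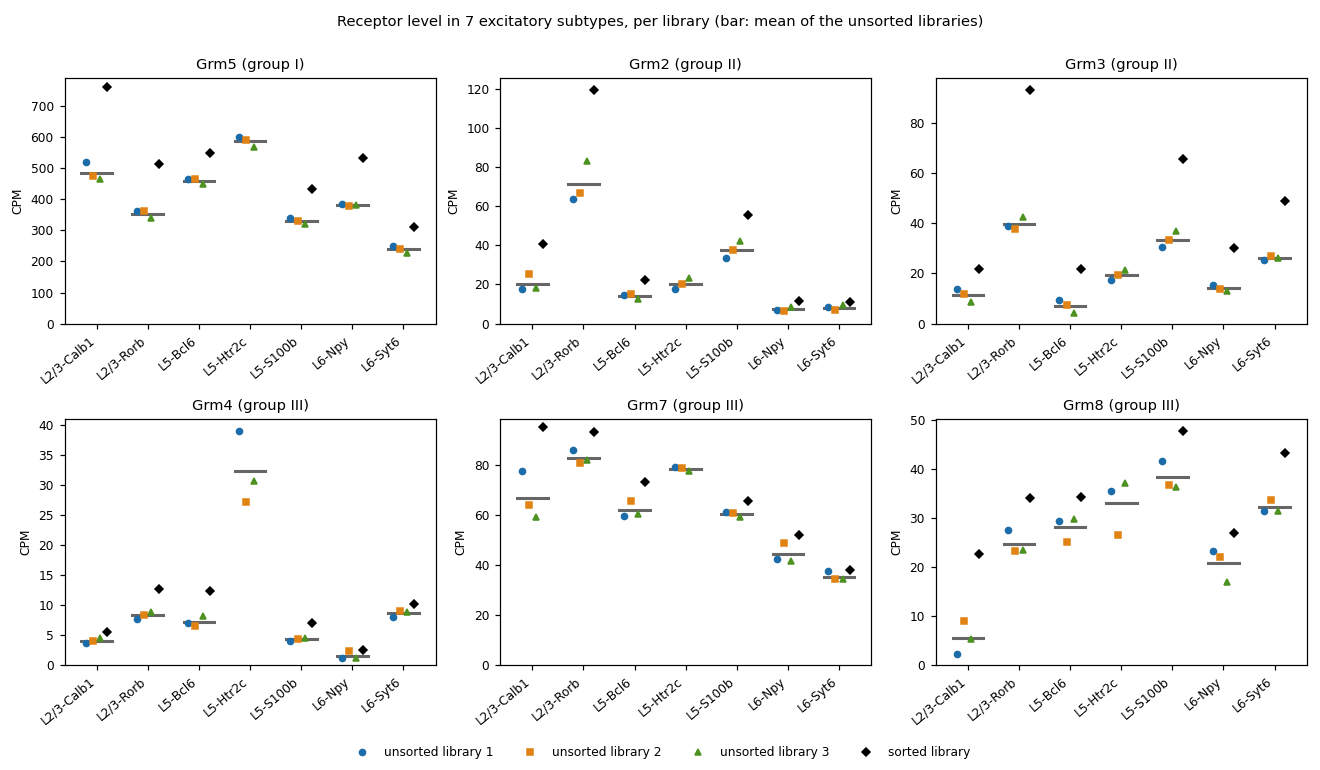
Level of each receptor (y axis, CPM, from 0) in the 7 excitatory subtypes (x axis). Circles, squares and triangles are the 3 unsorted libraries, diamonds the sorted library, and grey bars the mean of the unsorted libraries; Grm2 peaks in L2/3-Rorb at 71.2 CPM and Grm4 in L5-Htr2c at 32.3 CPM, and all diamonds lie above the unsorted points of their subtype.

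Grm5 (ENSMUSG00000049583; GRCm38 chromosome 7, 87584168 to 88134907, plus strand, protein-coding) encodes the Gq-coupled receptor mGluR5. It was highest in L5-Htr2c neurons, at 600 CPM, 593 CPM and 570 CPM in unsorted libraries 1, 2 and 3, and lowest in L6-Syt6 neurons, at 249, 240 and 228 CPM. The highest value in L6-Syt6 thus lay below the lowest in L5-Htr2c. The ratio of the means was 2.46 ± 0.0459, where ± is the SD of the ratios of the 3 libraries. Between these ends came L2/3-Calb1 at 487 ± 29.7 CPM (SD, n = 3), L5-Bcl6 at 460 ± 9.42, L6-Npy at 381 ± 3.48, L2/3-Rorb at 355 ± 13.8 and L5-S100b at 330 ± 9.10. L2/3-Calb1 overlapped L5-Bcl6, and L2/3-Rorb overlapped L5-S100b, while the other neighbours in this order did not overlap. When each neuron was reduced to 10000 UMIs, leaving out 221 shallower neurons and keeping 7544, 88.8% ± 1.16 of excitatory neurons kept a Grm5 UMI, from 83.2% ± 1.44 in L6-Syt6 to 99.1% ± 0.313 in L2/3-Calb1.

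Grm2 (ENSMUSG00000023192; chromosome 9, 106643095 to 106656082, minus strand, protein-coding) encodes mGluR2, the Gi/o-coupled autoreceptor of many cortical terminals. In L2/3-Rorb neurons it stood at 63.7, 66.8 and 83.3 CPM, and in L6-Npy neurons at 7.06, 6.65 and 8.22 CPM. The ratio of the means was 9.75 ± 0.621. L5-S100b followed L2/3-Rorb at 37.8 ± 4.33 CPM, without overlap. L2/3-Calb1 at 20.5 ± 4.43 CPM and L5-Htr2c at 20.4 ± 3.01 CPM overlapped, L5-Bcl6 stood at 14.2 ± 1.42 CPM, and L6-Syt6 at 8.19 ± 1.24 CPM overlapped L6-Npy. At 10000 UMIs per neuron, 50.6% ± 5.56 of L2/3-Rorb neurons and 6.58% ± 0.592 of L6-Npy neurons held a Grm2 UMI, against 77.6% ± 7.14 and 11.9% ± 1.69 before the reduction.

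Grm3 (ENSMUSG00000003974; chromosome 5, 9485541 to 9725170, minus strand, protein-coding) encodes mGluR3, the other group II receptor, which glia are also known to carry. Its level in L2/3-Rorb was 38.9, 37.6 and 42.4 CPM. L5-Bcl6 was the lowest, at 9.60, 7.23 and 4.06 CPM, so the 2 group II genes shared their highest subtypes (L2/3-Rorb, then L5-S100b) but not their lowest. L6-Syt6, next to lowest for Grm2, stood for Grm3 at 26.1 ± 0.789 CPM, below L5-S100b at 33.6 ± 3.15 and above L5-Htr2c at 19.5 ± 2.03, with no overlap among these. L6-Npy at 14.1 ± 1.23, L2/3-Calb1 at 11.5 ± 2.60 and L5-Bcl6 overlapped from neighbour to neighbour. Astrocyte markers summed to between 6.81 and 30.9 CPM in the libraries of 6 subtypes and to 91.4 to 121 CPM in L5-Htr2c; there Aldoc alone averaged 103 CPM, while Aqp4 averaged 0.776 CPM and Aldh1l1 was at 0 in all 3 libraries, and their part in the receptor levels of that subtype was not tested.

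Grm4 (ENSMUSG00000063239; chromosome 17, 27422387 to 27521403, minus strand, protein-coding) encodes mGluR4, a presynaptic group III receptor. L5-Htr2c neurons held 39.0, 27.2 and 30.7 CPM. No other subtype came near that level, the next being L6-Syt6 at 8.52 ± 0.535 CPM, and the 2 did not overlap; 39.5% of all genes had a highest subtype that did not overlap the next. L2/3-Rorb at 8.20 ± 0.529 and L5-Bcl6 at 7.12 ± 0.895 overlapped from neighbour to neighbour with L6-Syt6, followed by L5-S100b at 4.22 ± 0.328, by L2/3-Calb1 at 3.96 ± 0.378, which overlapped L5-S100b, and by L6-Npy at 1.43 ± 0.684. The L6-Npy level rested on 24 counts in all, so the ratio of highest to lowest mean, 22.7, was loose. In unsorted libraries 1, 2 and 3 the ratio was 37.7, 12.3 and 29.9 (SD 13.0). At 10000 UMIs, 27.6% ± 4.78 of L5-Htr2c neurons held a Grm4 UMI and 8.37% ± 0.339 of L6-Syt6 neurons did. L5-Htr2c was also the shallowest subtype, with a median of 13886.5 to 15638 UMIs per neuron.

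Grm7 (ENSMUSG00000056755; chromosome 6, 110645581 to 111567230, plus strand, protein-coding) encodes mGluR7, the low-affinity group III receptor of the presynaptic active zone. Its highest subtype was L2/3-Rorb at 86.2, 80.8 and 81.9 CPM and its lowest L6-Syt6 at 37.4, 34.4 and 34.1 CPM, a ratio of 2.35 ± 0.0469. L5-Htr2c at 78.5 ± 0.810, L2/3-Calb1 at 66.9 ± 9.66, L5-Bcl6 at 61.9 ± 3.20 and L5-S100b at 60.5 ± 1.05 CPM each overlapped the next, and L6-Npy stood apart at 44.3 ± 4.02 CPM.

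Grm8 (ENSMUSG00000024211; chromosome 6, 27275119 to 28135178, minus strand, protein-coding) encodes mGluR8, a group III receptor of high glutamate affinity. Its mean lay between 20.7 and 38.3 CPM in 6 subtypes, with L5-S100b at 38.3 ± 2.93 CPM, L5-Htr2c at 33.1 ± 5.74, L6-Syt6 at 32.2 ± 1.22, L5-Bcl6 at 28.1 ± 2.61, L2/3-Rorb at 24.7 ± 2.34 and L6-Npy at 20.7 ± 3.33. L2/3-Calb1 was the exception, at 2.06, 8.85 and 5.32 CPM from 4, 18 and 11 counts. Those 3 values lay below every other subtype's, and the low count left the ratio of highest to lowest mean, 7.09, loose. In unsorted libraries 1, 2 and 3 the ratio was 20.3, 4.16 and 6.85 (SD 8.63).

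Over the sums of excitatory subtype and library, the receptors whose levels ran most alike came from different groups. Over the 27 sums of 1 library and 1 subtype, Pearson's r of log2(CPM + 1) was 0.779 between Grm2 and Grm7, 0.712 between Grm5 and Grm7 and 0.576 between Grm2 and Grm3. Within group III it was 0.381 for Grm4 and Grm7, 0.363 for Grm4 and Grm8 and -0.129 for Grm7 and Grm8. These sums share libraries and mice, so the coefficients only describe the pattern. The sorted library is among them, so each r holds its difference from the unsorted libraries as well as the pattern over subtypes. Among 10519 genes of at least 5 CPM, the 3 whose levels ran closest to Grm2 were Nudt4 (0.953), AI593442 (0.941) and Ptgfrn (0.939), and for Grm3 they were Pclo (0.952), Scrn1 (0.931) and Rims1 (0.903). Gm10600 (0.940), Erich3 (0.934) and Nrsn2 (0.933) ran closest to Grm4, and Nfyb (0.909), Safb2 (0.904) and Dpp6 (0.899) to Grm5. For Grm7 they were Rassf3 (0.956), Cdh8 (0.949) and Spats2l (0.935), and for Grm8 Rnf14 (0.907), Myo5a (0.902) and Ankrd29 (0.874).

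The sorted library lay above the unsorted range for every receptor in every subtype it could be measured in, 36 of 36 values, against 47.7% of values above the range and 30.1% below it over all genes. The L5-Htr2c subtype is missing from this count because the sorted library held 4 such neurons. By the median over the 6 subtypes Grm3 stood furthest out, at 2.05 times the unsorted mean with a range of 1.87 to 3.1. In L2/3-Rorb, for example, it was at 93.4 CPM against 38.9, 37.6 and 42.4 CPM. Grm7 stood closest, at 1.07 to 1.42 times. The other ratios were 1.33 to 1.99 for Grm2, 1.19 to 1.74 for Grm4, 1.20 to 1.57 for Grm5 and 1.22 to 4.19 for Grm8, whose upper end came from L2/3-Calb1. The median of the 36 ratios was 1.44, and the median ratio over all genes of at least 5 CPM was 1.06 to 1.10 per subtype. With TMM-scaled library sizes 35 of 36 values stayed above the range, with a median ratio of 1.33. The sort, the pooled animals, the greater depth and the library itself cannot be told apart, as there was 1 sorted library.

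Inhibitory and excitatory neurons of the same mice differed most in group II receptors. Grm2 and Grm3 were far lower in inhibitory cells, Grm8 was lower too, Grm4 was slightly higher, and Grm5 and Grm7 differed little from the excitatory class as a whole. Of the 6 genes, 1 was called higher and 3 lower in inhibitory cells by edgeR's quasi-likelihood test with the library as block, where a call needed an adjusted p below 0.05 together with a change past 0.5 on the log2 scale. Over all 15281 genes tested 40.5% were called (20.9% higher and 19.6% lower), so a call as such is common in this comparison. The median log2 fold change was -0.89 for the 6 receptors and -0.0048 for all genes. The most numerous subtype of the excitatory side was L6-Syt6.

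Grm2 was counted at 2.48, 1.80 and 2.52 CPM in the inhibitory cells of unsorted libraries 1, 2 and 3 and at 17.3, 16.8 and 20.8 CPM in their excitatory neurons. The classes did not overlap in any library, and the log2 fold change was -3.12 ± 0.142 (SE; adjusted p = 5.53e-17). Grm3 stood at 4.49, 4.5 and 3.02 CPM against 24.9, 25.8 and 26.1 CPM, with a log2 fold change of -2.77 ± 0.12 (adjusted p = 1.67e-17), while astrocyte markers ran the other way, at 48.5 to 55.4 CPM in inhibitory and 23.3 to 25.7 CPM in excitatory cells. Markers of other non-neuronal cells were also higher in inhibitory cells in 3 of 3 libraries, with those of oligodendrocytes at 83.2 to 155 against 28.0 to 29.1 CPM, of their precursors at 26.7 to 36.0 against 3.40 to 4.70 CPM, of microglia at 51.5 to 150 against 13.0 to 15.8 CPM and of endothelial cells at 22.2 to 115 against 9.69 to 10.3 CPM. Mural markers were at 35.9 to 50.1 against 15.6 to 16.5 CPM, and the part of these lists in the class differences was not tested. At a common 2000 UMIs per cell, 0.652% ± 0.22 of inhibitory cells and 3.60% ± 0.331 of excitatory neurons held a Grm2 UMI. Microglia, which gave the level that free RNA can leave in a droplet, held one in 0.0812% ± 0.0275 of cells. For Grm4 the shares were 2.62%, 1.59% and 0.161% in the same order, and for Grm5 40.4%, 43.5% and 1.30%; the microglial median depth was 3727 to 3868.5 UMIs, against 12809.5 to 13768 UMIs in inhibitory cells and 21343.5 to 23213 in excitatory neurons.

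Grm8 was at 11.8, 9.01 and 11.6 CPM in inhibitory cells and at 31.2, 30.9 and 29.3 CPM in excitatory neurons, lower in all 3 libraries (log2 fold change -1.61 ± 0.091, adjusted p = 6.94e-15). Grm4 was the only receptor called higher in inhibitory cells, at 11.1, 13.4 and 10.9 CPM against 7.26, 7.66 and 7.74 CPM. Its log2 fold change of 0.54 ± 0.115 (adjusted p = 0.000165) was close to the limit, and it fell to 0.45 without unsorted replicate 2 and to 0.49 when all genes were kept, both short of a call, and rose to 0.84 when L6-Syt6 neurons were left out of the excitatory side. Grm5 stood at 307, 282 and 279 CPM against 314, 302 and 292 CPM, and its log2 fold change of -0.17 ± 0.0267 had an adjusted p of 2.53e-06 but was under the fold limit. Grm7 stood at 52.1, 44.7 and 50.7 CPM against 48.8, 46.4 and 45.5 CPM, higher in 2 of 3 libraries. The classes overlapped, and its TMM-scaled log2 fold change was -0.04 ± 0.0569 (adjusted p = 0.555). Grm5 and Grm7 were both low in L6-Syt6. Against the excitatory neurons without L6-Syt6 their log2 fold changes were -0.50 (adjusted p = 2.14e-11) and -0.42 (adjusted p = 3.26e-06), still not past the fold limit. That of Grm2 was then -3.88.

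**Figure D2:**
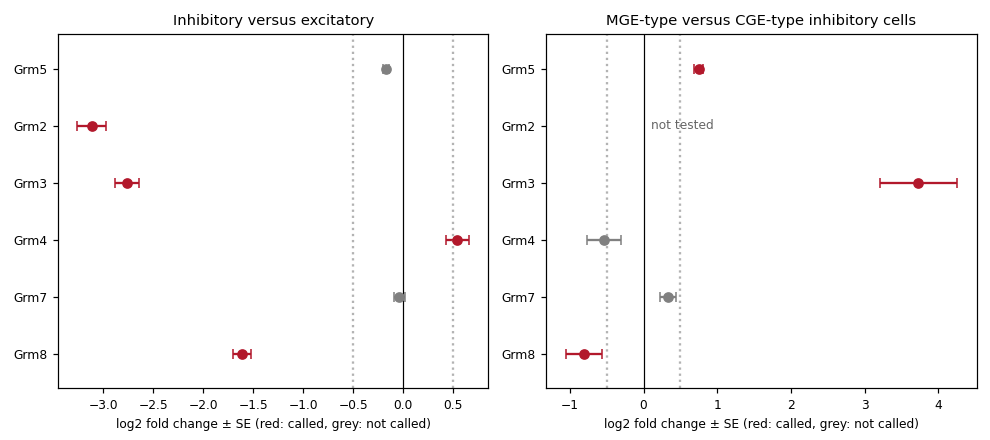
Log2 fold change with its SE (x axis) for each receptor (y axis) between inhibitory and excitatory neurons (left) and between MGE-type and CGE-type inhibitory cells (right), from 3 unsorted libraries. Red points passed both the adjusted p and the fold limit (dotted lines); Grm2 and Grm3 stand at -3.12 and -2.77 on the left, and Grm3 at 3.73 on the right.

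The inhibitory cells were divided by Lhx6, a transcription factor gene, and Adarb2: MGE-type cells, of the lineage that gives Sst and Pvalb interneurons, had at least 2 Lhx6 UMIs and no Adarb2, and CGE-type cells, of the lineage that gives Vip interneurons, had the reverse. This left 105 to 120 MGE-type and 231 to 283 CGE-type cells per unsorted library, with medians of 18270 to 19291 and 10640 to 12138 UMIs. MGE-type cells held more Grm5 and Grm3 and less Grm8. Of the 5 receptors tested 2 were called higher and 1 lower, where 21.2% of 11347 genes were called (10.1% higher and 11.1% lower); the median log2 fold change was 0.33 for the 5 and -0.0087 for all genes.

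Grm5 was at 398, 333 and 358 CPM in MGE-type cells and at 228, 219 and 201 CPM in CGE-type cells, without overlap (log2 fold change 0.75 ± 0.0566, adjusted p = 1.95e-12). Grm3 was at 8.36, 6.64 and 6.75 CPM in MGE-type cells from 48 counts, and at 0.918, 0.279 and 0.328 CPM in CGE-type cells from 5 counts. The CGE-type level lay below the mean of 1.92 CPM in microglia, so it could not be told from free RNA. The pooled ratio was 14.4 with an exact 95% counting interval of 5.76 to 46.3, and the fitted log2 fold change was 3.73 ± 0.527 (adjusted p = 8.14e-07). Astrocyte markers were again opposite, summing to 17.3 to 34.2 CPM in MGE-type and 72.0 to 72.8 CPM in CGE-type cells. Markers of oligodendrocytes (20.7 to 96.4 against 116 to 282 CPM) and of their precursors (9.29 to 28.5 against 30.1 to 39.9 CPM) were lower in MGE-type cells in 3 of 3 libraries too, and their part in the differences was not tested.

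Grm8 was lower in MGE-type cells, at 9.24, 4.87 and 8.68 CPM against 14.7, 12.6 and 12.5 CPM (log2 fold change -0.81 ± 0.244, adjusted p = 0.00886). That call was lost in DESeq2 (adjusted p = 0.346) and without unsorted replicate 2 (-0.60, adjusted p = 0.107). Grm4 was at 9.24, 11.9 and 7.24 CPM against 13.8, 13.4 and 14.4 CPM, a log2 fold change of -0.54 ± 0.228 that missed the threshold (adjusted p = 0.0661); without unsorted replicate 2 it was -0.76 (adjusted p = 0.0328). Grm7 had a log2 fold change of 0.33 ± 0.104 (adjusted p = 0.013), under the fold limit. Grm2 was too sparse to be tested, with 14 counts in MGE-type and 21 in CGE-type cells, a pooled ratio of 1.00 with a 95% interval of 0.47 to 2.06.

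The genes around the receptors were counted in the same fits. Of 41 listed partners 38 were tested between inhibitory and excitatory neurons, and 9 were called higher and 13 lower in inhibitory cells (median log2 fold change -0.18), where 20.9% of all genes were called higher and 19.6% lower. Elfn1, a postsynaptic protein that binds group III receptors across the synapse, was 5.90 ± 0.0643 higher on the log2 scale (adjusted p = 2.80e-31), and Homer3, a scaffold of group I receptors, 2.06 ± 0.375 higher. Rgs14 and the IP3 receptor gene Itpr1 fell furthest, with log2 fold changes of -5.76 ± 0.174 and -2.74 ± 0.0451. Of the RGS genes, which shorten G protein signals, 3 of 4 were lower, and of the 8 tested Gq-path genes 4 were lower and 1 higher. Both tested genes of N-acetylaspartylglutamate handling, the peptide agonist of mGluR3, were higher. Between MGE-type and CGE-type cells 11 of 36 partners were called higher and 6 lower, against 10.1% and 11.1% of all genes; Rgs4 rose (2.67 ± 0.101), and Slc1a2 (-2.33 ± 0.0899) and Homer2 (-2.24 ± 0.11) fell most.

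Outside neurons the receptors were present in different glia. Classes were selected on marker genes among the remaining cells of the unsorted libraries, and their levels were described without a test. Grm3 reached 213, 204 and 237 CPM in astrocytes (152 to 175 cells per library), above each excitatory subtype, and 55.0, 51.3 and 56.0 CPM in oligodendrocytes. Grm5 reached 157, 185 and 161 CPM in oligodendrocyte precursors, which also held Grm7 at 21.7 ± 1.75 CPM and Grm4 at 5.85 ± 1.62 CPM. All 6 receptors averaged 0.425 to 8.00 CPM in microglia.

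At 2000 UMIs per cell the share with a Grm3 UMI was 33.9% ± 2.49 in astrocytes, 11.0% ± 0.277 in oligodendrocytes and 0.308% ± 0.225 in microglia, and the unreduced shares were 47.8% ± 5.30, 24.1% ± 0.465 and 0.562% ± 0.342. The share with a Grm5 UMI was 27.4% ± 2.65 in oligodendrocyte precursors and 1.30% ± 0.188 in microglia. Astrocyte Grm5, at 15.2 ± 7.60 CPM from 23 counts, overlapped the microglial range of 6.92 to 8.81 CPM. Grm4 had 0 counts in the astrocytes of each library, where 3 counts in 1 library would have been 5.10 to 6.37 CPM. Grm2 and Grm8 stayed under 1.5 CPM on average in each glial and endothelial class.

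**Figure D3:**
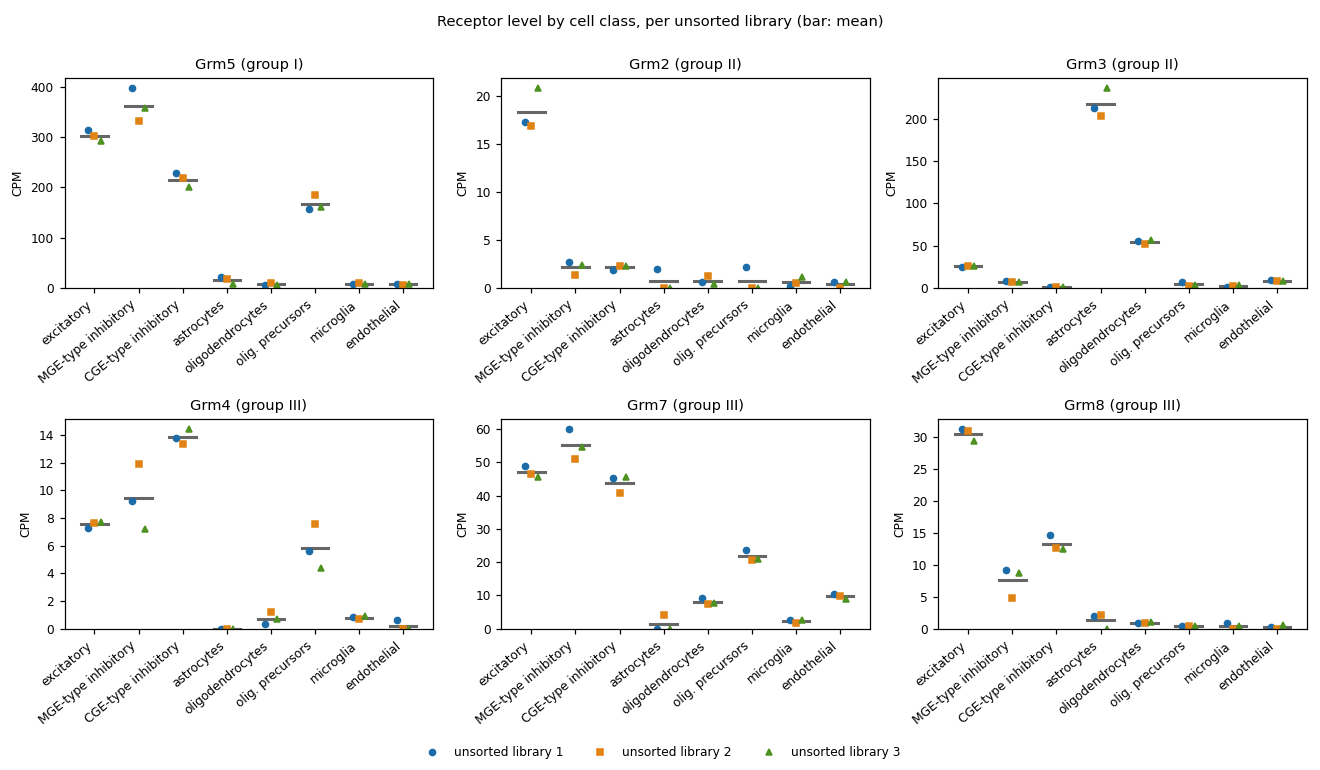
Level of each receptor (y axis, CPM, from 0) in 8 cell classes (x axis), with 1 symbol per unsorted library and a grey bar at the mean. Grm3 peaks in astrocytes at 218 CPM, Grm5 is high in excitatory, MGE-type and CGE-type neurons and in oligodendrocyte precursors (168 CPM), and Grm2 is seen mainly in excitatory neurons (18.3 CPM).

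Whether a receptor differed between neurons that took up virus from an injected target and those that did not was asked within each subtype, comparing barcode-high neurons (at least 5 UMIs of the viral feature) with barcode-zero neurons of the same library. The gene count matrices used here hold 1 viral feature, and which of the 5 viruses it counts is not given in the sources used here. Targets could thus not be told apart, and a neuron at 0 may carry a virus that the feature does not count or project without label. The paper lists separate matrices of barcode counts as available, and these were not used. The contrast could be run in 6 subtypes; L2/3-Calb1 and L5-Bcl6 had enough cells in the 3 unsorted libraries only, and L5-Htr2c could not be tested. No receptor was called in any of the 30 member tests of edgeR's quasi-likelihood fit, whose log2 fold changes ran from -0.47 to 0.42, and 2 had an adjusted p below 0.05 (6 before adjustment). DESeq2 also called 0. Among all genes 0.18% were called in L2/3-Calb1, 0.139% in L2/3-Rorb, 0.0686% in L5-Bcl6, 0.801% in L6-Npy, 1.67% in L6-Syt6 and 2.7% in L5-S100b, so few calls were to be had among 6 genes. The number of receptors that passed the filter on low counts was 3, 6, 4, 5, 6 and 6 in the same order. In L2/3-Calb1, L2/3-Rorb and L5-Bcl6, 473 of 8340, 681 of 10038 and 579 of 8752 genes had an unadjusted p below 0.05. In L6-Npy, L6-Syt6 and L5-S100b it was 1096 of 10365, 3307 of 13030 and 1970 of 11477 genes. For an adjusted p below 0.05 without the fold limit, no count over all genes was made.

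**Figure D4:**
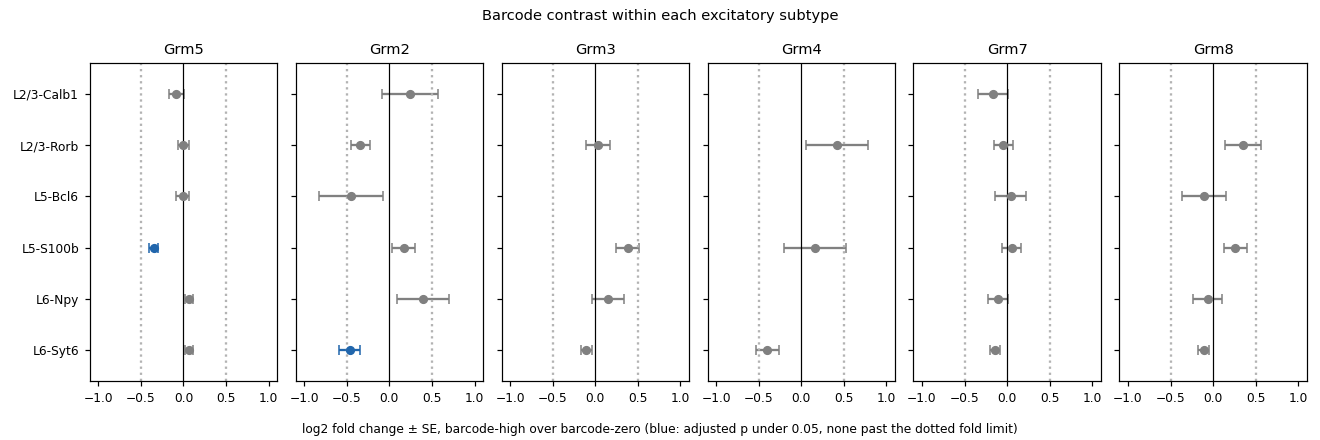
Log2 fold change of barcode-high over barcode-zero neurons with its SE (x axis) in 6 excitatory subtypes (y axis), 1 panel per receptor; a missing point did not pass the filter on low counts. Blue points have an adjusted p below 0.05 (Grm5 in L5-S100b at -0.35 and Grm2 in L6-Syt6 at -0.47), and no point with such a p lies beyond the dotted fold limit.

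In L5-S100b neurons, barcode-high cells held less Grm5 in all 4 libraries. The level was 317, 313, 303 and 402 CPM in the barcode-high neurons of unsorted libraries 1, 2 and 3 and the sorted library, and 411, 422, 381 and 525 CPM in their barcode-zero neurons. The log2 fold change was -0.35 ± 0.0532 (adjusted p = 3.39e-05), under the limit of 0.5 and hence no call; it was -0.36 to -0.30 in the alternative fits, with an adjusted p of at most 0.00359 in all of them but the fit without the library block (0.31). Barcode-high neurons were deeper, with medians of 25553.5 to 34389 against 19306.5 to 28185 UMIs, and within 15000 to 45000 UMIs the log2 fold change was -0.33 (adjusted p = 0.000208). Excitatory markers were higher in barcode-high neurons in 4 of 4 libraries (2038 to 2186 against 1668 to 2038 CPM), as were microglial ones (3.03 to 18.4 against 0 to 14 CPM); their part in the result was not tested.

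The other receptors of L5-S100b did not share this direction. Grm3 had a log2 fold change of 0.38 ± 0.136 (adjusted p = 0.108) and was higher in 4 of 4 libraries, Grm8 of 0.26 ± 0.136, Grm2 of 0.17 ± 0.133, Grm4 of 0.16 ± 0.366 and Grm7 of 0.05 ± 0.107, with adjusted p from 0.108 to 0.874. Of the 36 partners tested there 3 were called, each of them higher, against 2.7% of all genes called in either direction, and the median for the 36 was 0.04 on the log2 scale. Homer2 (0.80 ± 0.11, adjusted p = 6.42e-06) and the glutamate transporter gene Slc1a2 (0.53 ± 0.0514, adjusted p = 2.18e-08) had the largest values, and Homer1, named after its value was seen, was the other (0.50 ± 0.0623, adjusted p = 1.17e-06), a scaffold that links Grm5 to Shank proteins.

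In L6-Syt6 neurons Grm2 was at 7.02, 5.31, 7.94 and 7.97 CPM in barcode-high and 9.10, 7.59, 9.98 and 16.0 CPM in barcode-zero cells, in the same order of libraries. It was lower in 4 of 4 libraries, the groups overlapped across libraries, and the log2 fold change was -0.47 ± 0.12 (adjusted p = 0.0458), under the fold limit. In neurons of 15000 to 45000 UMIs it was -0.53 (adjusted p = 0.0323), which passed both limits. With barcode-positive neurons from 1 UMI up it was -0.28 (adjusted p = 0.22), and without the library block -0.40 (adjusted p = 0.404). Leaving out unsorted replicate 1, 2 or 3 gave adjusted p of 0.133, 0.18 and 0.115. Grm4 in the same neurons had a log2 fold change of -0.40 ± 0.135 (adjusted p = 0.102), also lower in 4 of 4 libraries. The mural cell list, led in this subtype by Rgs5, summed to 6.31 to 11.5 CPM in barcode-high and 24.3 to 35.7 CPM in barcode-zero neurons. MGE-type markers were also lower in 4 of 4 libraries, at 0.178 to 3.84 against 1.49 to 9.19 CPM, and the other lists ran in mixed directions. The part of these lists in the result was not tested. Barcode-high neurons were deeper here too, with medians of 24582 to 38604 against 21684 to 30096.5 UMIs.

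In L2/3-Rorb, L2/3-Calb1, L5-Bcl6 and L6-Npy the Grm5 log2 fold changes were -0.0015, -0.08, -0.0076 and 0.06, with SE of 0.0619, 0.0902, 0.0773 and 0.0479. Grm7 stayed between -0.17 and 0.05 in the 6 subtypes. Grm4 in L2/3-Rorb (0.42 ± 0.364, adjusted p = 0.888) and Grm2 in L5-Bcl6 (-0.45 ± 0.373, adjusted p = 0.909) had wide errors. Of the partners 1 of 35 was called in L6-Npy (Slc1a2, 0.53 ± 0.099 higher, adjusted p = 0.00114), where 0.801% of all genes were called. It was 0 in L2/3-Calb1, L2/3-Rorb, L5-Bcl6 and L6-Syt6. In that order, 7 of 33, 9 of 34, 5 of 33 and 16 of 37 partners had an unadjusted p below 0.05. Among all genes it was 473 of 8340, 681 of 10038, 579 of 8752 and 3307 of 13030.

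The Grm5 contrast of L5-S100b was compared with that of the 3 other subtypes in which all 4 libraries qualified, by an interaction term. It was below that of L6-Syt6, with a difference of -0.42 ± 0.0719 (SE, log2 scale; adjusted p = 0.000159), and below that of L6-Npy, with a difference of -0.41 ± 0.0771 (adjusted p = 0.00197). The contrast of L2/3-Rorb exceeded it by 0.36 ± 0.0815 (adjusted p = 0.0202). Over the 6 pairs of subtypes 5 of 36 member tests had an adjusted p below 0.05, the other two being Grm2 and Grm3 between L5-S100b and L6-Syt6. Among all 12081 genes the share was 6.7% for L5-S100b and L6-Syt6, 1.13% for L5-S100b and L6-Npy and 0.695% for L2/3-Rorb and L5-S100b, and 0.0166% to 3.36% for the other pairs.

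**Figure D5:**
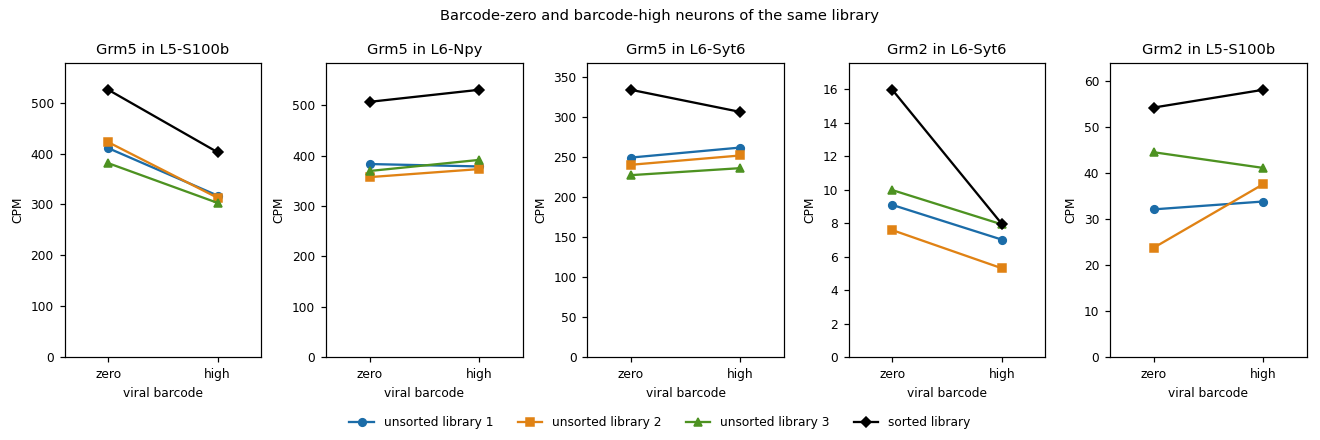
Level (y axis, CPM, from 0) in barcode-zero and barcode-high neurons (x axis), with a line joining the 2 values of each library. All 4 lines fall for Grm5 in L5-S100b (from 411, 422, 381 and 525 to 317, 313, 303 and 402 CPM) and for Grm2 in L6-Syt6, while they run in mixed directions for Grm5 in L6-Npy and L6-Syt6 and for Grm2 in L5-S100b.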

How the data were processed

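The deposited matrices hold raw UMI counts per gene and cell, which the authors made with Cell Ranger against mm10 (GRCm38) with the viral sequences added; the submitters' processing notes also name Seurat 3.1.4 and Scanpy. The deposited metadata gave the excitatory cell names and subtypes. Its other deposited columns give UMI counts, genes and the percent of mitochondrial UMIs per cell, and the authors had kept cells with 1000 to 60000 UMIs, 500 to 8000 genes and a mitochondrial share below 20%. The viral feature (0.0319% to 0.0384% of UMIs) entered neither library sizes nor tests. Coordinates are those of GENCODE M21 on GRCm38, matched by gene ID for all 6 receptors.

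Sums of counts over the cells of each group in each library (Python 3.11.15, pandas 2.3.3) were tested with edgeR 4.0.16 (TMM, filterByExpr, quasi-likelihood F test, library as block, Benjamini-Hochberg over all genes tested). Calls needed adjusted p below 0.05 and a change past 0.5 on the log2 scale. Sums under 10 cells were given no level. Both groups of a contrast came from the same library and hence the same mouse (or pool), which is what pairs them. The deviations of paired groups correlated at 0.276 to 0.564 between inhibitory and excitatory neurons and at 0.00862 to 0.266 between MGE-type and CGE-type cells. In the barcode contrasts of unsorted libraries only, the correlation was -0.114 to 0.0768 (L2/3-Calb1) and 0.083 to 0.117 (L5-Bcl6). In the other barcode contrasts, which include the sorted library, it was 0.432 to 0.911. Summed counts of the unsorted libraries differed by more than sampling noise (chi-square per degree of freedom 3.87 to 10.7), so each counted as 1 replicate. With the library as block, p-values measure how much the difference between paired groups varied from library to library. Shares with a UMI are those expected after drawing 10000 or 2000 UMIs per cell. Non-neuronal classes needed at least 4 UMIs of their markers and 3 times those of any other class. No doublet caller was run. Counting intervals are exact (Clopper-Pearson) and cover counting error only.

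All 6 receptors were named throughout; the 3 genes of highest correlation per receptor and up to 2 partner genes called per direction were named by rule. A second row named Pick1 was not used, and some results of the partner list are not reported here. Members, lists and tests were chosen with earlier results of these data known. The tests were run on simulated data with known fold changes. Those data held no differences between libraries beyond depth, so the check does not cover the library block. Alternatives were DESeq2 1.42.0, no filter, no block, other selections of cells and leaving out each library.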

Additional observations from a re-analysis of the deposited data

Results flagged for a closer look

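The barcode contrast (barcode-high minus barcode-zero, log2) of 3 receptors differed between subtypes by the interaction test. For Grm5 the contrast in L5-S100b was lower than that in L6-Syt6, a difference of -0.42 (adjusted p = 0.000159), and lower than that in L6-Npy, a difference of -0.41 (adjusted p = 0.00197). The L2/3-Rorb contrast of Grm5 exceeded that of L5-S100b by 0.36 (adjusted p = 0.0202). Grm5 was lower in barcode-high cells in 4 of 4 libraries of L5-S100b, and higher in 3 of 4 libraries of both L6-Npy and L6-Syt6.

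For Grm2 the L5-S100b contrast exceeded that of L6-Syt6 by 0.63 (adjusted p = 0.0352), with barcode-high cells higher in 3 of 4 libraries of L5-S100b and lower in 4 of 4 of L6-Syt6. For Grm3 the same difference was 0.48 (adjusted p = 0.0358). In the barcode contrast within a subtype none of these receptors was called by edgeR with all neurons; Grm2 was called in L6-Syt6 among neurons of 15000 to 45000 UMIs (-0.53, adjusted p = 0.0323).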

How the results depend on the processing

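No receptor's call changed direction under the alternatives run. Values without a call reversed in sign in the barcode contrasts and, for Grm7, between inhibitory and excitatory neurons. At 15000 to 45000 UMIs Grm3 of L2/3-Rorb became -0.0033, Grm5 of L2/3-Rorb 0.0099 and Grm5 of L5-Bcl6 0.032. Keeping all genes gave 0.045 and 0.031 for Grm5 in the same subtypes, and in L2/3-Rorb it was 0.011 in barcode-positive cells and 0.0010 in DESeq2. Leaving out 1 library spread Grm2 of L2/3-Calb1 from -0.17 to 0.80, Grm3 of L2/3-Rorb from -0.013 to 0.067, Grm5 from -0.065 to 0.063 and Grm7 from -0.17 to 0.033 there, Grm5 of L5-Bcl6 from -0.010 to 0.0028, Grm7 of L5-S100b from -0.016 to 0.12, Grm8 of L6-Npy from -0.21 to 0.17 and Grm7 between inhibitory and excitatory neurons from -0.080 to 0.014.

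Without the replicate block the genes called fell from 14 to 0 in L2/3-Rorb (285 at an unadjusted p below 0.05), from 6 to 1 in L5-Bcl6, from 310 to 56 in L5-S100b, from 83 to 0 in L6-Npy (406 unadjusted) and from 218 to 75 in L6-Syt6; the block changed no receptor's call. DESeq2 called 2 in L2/3-Calb1 (15 in edgeR), 0 in L2/3-Rorb and L5-Bcl6 (132 and 46 unadjusted), 142 in L5-S100b, 11 in L6-Npy and 1459 between MGE-type and CGE-type cells (2405 in edgeR). Barcode-positive neurons (1 or more UMIs) gave 4, 6, 0, 202, 31 and 27 in L2/3-Calb1, L2/3-Rorb, L5-Bcl6 (573 unadjusted), L5-S100b, L6-Npy and L6-Syt6. Keeping all genes gave 32, 28 and 22 in the first 3, and took the median of all genes between inhibitory and excitatory neurons from -0.0048 to -0.11. Leaving out 1 library gave 12 to 26, 2 to 33, 4 to 31, 178 to 289, 45 to 75 and 28 to 309 calls, with 0 receptors called; counts moved by over 1.5 times without unsorted replicate 1 (2 in L2/3-Rorb, 78 in L6-Syt6), replicate 2 (28 in L6-Syt6, 33 in L2/3-Rorb, 178 in L5-S100b) and replicate 3 (26, 31, 45 and 77 in L2/3-Calb1, L5-Bcl6, L6-Npy and L6-Syt6). At 15000 to 45000 UMIs 1 receptor, Grm2, was called in L6-Syt6.

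Grm4 lost its call in inhibitory cells at a stricter selection (0.50 with at least 8 Gad1 and Gad2 UMIs), and gained one between MGE-type and CGE-type cells with a looser one (-0.63). The ratio of highest to lowest subtype moved by more than 1 SD for Grm5 (2.52 by mean per-cell CPM, 2.10 with TMM) and Grm7 (2.13 with TMM). Depth limits the sparse levels: Grm8 in L2/3-Calb1, Grm4 in L6-Npy and Grm3 in CGE-type cells rest on 33, 24 and 5 counts.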
